A study of Mus musculus with 10 samples.

Results

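Long genes with broad functions are large genes that most tissues express, among them metabolic enzymes, membrane traffic proteins, cytoskeletal linkers, kinases and chromatin factors. A list of 40 such genes was followed after knockdown of Sfpq, to ask whether the response of long genes extends beyond neuronal ones. The list was picked for gene size and not for any value in these files, though earlier results of these data were known. Of the 40, 39 had a row in the files, out of 23553 genes in all, and Naaladl2 had none. Of the 39, 34 reached a mean of 0.5 RPKM (reads divided by transcript length and by library size) over the poly(A) libraries and were tested. The other 5, Fhit, Diaph2, Pard3b, Cdk14 and Atxn1, lay under that minimum. No gene span was measured here, so "long" rests on general knowledge of these genes.

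The cells were Neuro-2a, a mouse neuroblastoma line whose strain the labels give as C57BL/6+C57BL/6J+CBA, reverse-transfected with Stealth siRNA and RNAiMAX in differentiation medium with 2% serum. Luc cells received an siRNA against luciferase, a gene that mouse cells lack, and Sfpq cells received one against Sfpq. The time from transfection to harvest is not given in the sources used here. RNA selected for poly(A) tails gave 3 libraries per siRNA. Total RNA from which ribosomal RNA had been removed (rRNA-depleted), which keeps transcripts with and without a tail, gave 1 per siRNA. Whether replicate libraries stem from different cultures is not stated, and the p-values below reflect their spread, which could be technical.

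Sfpq is a nuclear protein that binds RNA and DNA and takes part in transcription, splicing and the transport of RNA. In a gene whose introns run over a great distance, RNA polymerase must stay engaged for a long time before the transcript can be completed and polyadenylated, so the yield of full-length RNA depends on elongation as well as on initiation. Fhit, Wwox, Immp2l, Macrod2 and Dpyd also carry fragile sites, chromosome regions that tend to break when replication is slowed.

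The targeted RNA and the identity of the cells were checked in every library. Sfpq was at 56.8, 60.8 and 73.0 RPKM in the Luc and 3.98, 4.75 and 6.47 RPKM in the Sfpq libraries (7.97% of the Luc mean), and at 30.8 and 4.43 RPKM in the rRNA-depleted pair. All 10 sympathetic neuroblast markers reached 1 RPKM in at least 1 poly(A) library. Their summed level was 525 to 587 RPKM in the Luc and 451 to 463 RPKM in the Sfpq libraries. The sum was lower in the Sfpq cells mainly through Stmn2 (271 to 289 RPKM in the Luc and 169 to 192 RPKM in the Sfpq libraries), while single markers differed in both directions, with Chga at 68.6 to 89.7 against 127 to 141 RPKM. The part of this in the results below was not tested. Of the markers of fibroblasts, glia, leukocytes and epithelium, 0 reached 1 RPKM, against 1 of 4 for endothelium and 1 of 4 for skeletal muscle. Endothelial sums were 1.64 to 2.01 RPKM in the Luc and 0.949 to 1.48 RPKM in the Sfpq libraries. Relative to Luc replicate 1, sequencing depth read from the spacing of low values was lowest in Sfpq replicate 1 (0.628 times) and highest, among poly(A) libraries, in Luc replicate 3 (1.28 times).

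Most of the long genes lost RNA when Sfpq was knocked down. Of the 34 tested, 24 fell, 0 rose and 10 did not pass the test (limma on log2(RPKM + 0.5), adjusted p under 0.05 over all 11727 genes tested). Over all genes tested, 18.6% were called lower and 21.3% higher. The median log2 fold change of the 34 was -0.92, with a range from -3.23 for Fto to 0.29 for Pard3, beside a median of 0.05 over all genes. At an unadjusted p under 0.05, limma gave 25 lower and 1 higher, the latter Pard3. The share of all genes at that unadjusted threshold is not given, here or beside the unadjusted counts below. A fall of at least 2-fold was called for 16 of the 34 genes, beside 4.73% of all genes, and one of at least 4-fold for 8, beside 0.759%. The count at 4-fold was 6 when the rows of each gene were averaged and 4 with a pseudocount of 1. The 6 libraries did not overlap for 26 of the 34, with every Sfpq library below every Luc library (24.7% of all genes), and 0 showed the opposite order (28.2%). Prkca, Prkce and Smyd3 met the minimum through their Luc libraries alone, as their Sfpq means lay under it. Without those 3, 21 of 31 genes were called lower and the median was -0.66. All 3 are among the 16 genes at 2-fold, and Prkca and Prkce are among the 8 at 4-fold. In bulk RNA, fewer cells of a kind and less RNA per cell cannot be told apart.

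The lower level of the list was seen in every Sfpq library. In the Luc libraries the median of the 34 genes, on the log2(RPKM + 0.5) scale, differed from the median of all other tested genes by -0.04, 0.02 and -0.17. In the Sfpq libraries the same gap was -1.28, -1.20 and -1.22. The 34 genes together held 311, 312 and 329 RPKM in the Luc and 167, 183 and 179 RPKM in the Sfpq libraries. By the median, the 34 genes stood level with other genes in control cells and well under them in all 3 knockdown libraries. These gaps restate the fold changes above library by library and are not separate support. They include Prkca, Prkce and Smyd3, which met the minimum through their Luc libraries alone, and gaps without those genes are not given here.

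**Figure D1:**
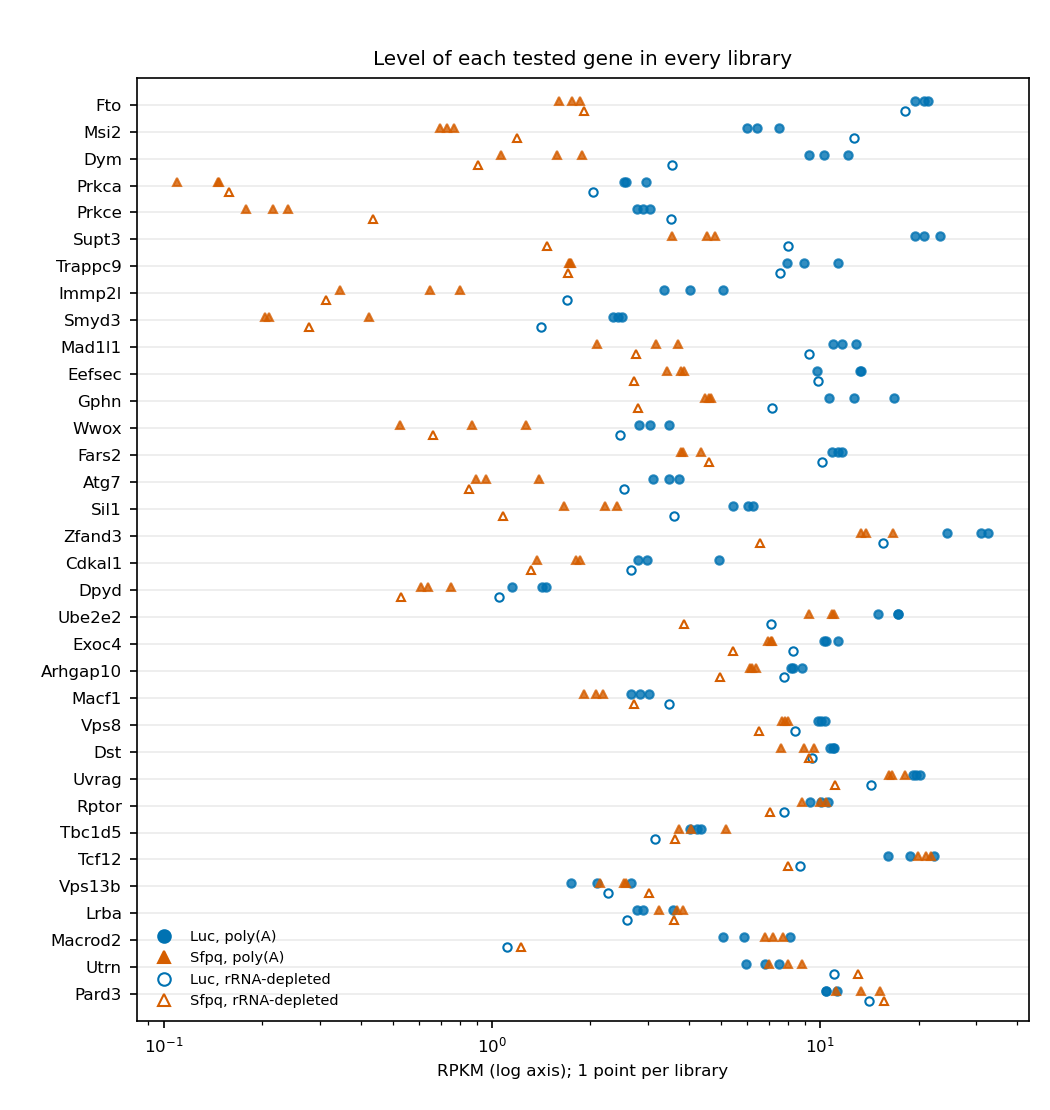
Level of each of the 34 tested long genes in every library (horizontal axis: RPKM, log scale). Filled circles are the 3 Luc and filled triangles the 3 Sfpq poly(A) libraries, open symbols just under them are the rRNA-depleted libraries, and genes are ordered by log2 fold change. From Fto at the top down to Uvrag the 3 Sfpq libraries lie left of the 3 Luc libraries, and in the 8 genes at the bottom they overlap.

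The windows around the start sites of Fto, Msi2 and Prkca, which had some of the deepest falls, and of Pard3, at the other end of the range, are shown so that genes at both ends of the range can be compared. Each is the RefSeq window from 250 bases before to 50 bases after the start in GRCm38.p6, which is not the build of the files, written 5′ to 3′ on the strand of the gene. Capitals mark CG pairs, the same on both strands. Fto lies at chr8:91313275-91313574 on the plus strand and Msi2 at chr11:88718180-88718479 on the minus strand, 1 of 3 Msi2 windows. Prkca lies at chr11:108343839-108344138 on the minus strand and Pard3 at chr8:127063806-127064105 on the plus strand, 1 of 2 Pard3 windows.
Fto: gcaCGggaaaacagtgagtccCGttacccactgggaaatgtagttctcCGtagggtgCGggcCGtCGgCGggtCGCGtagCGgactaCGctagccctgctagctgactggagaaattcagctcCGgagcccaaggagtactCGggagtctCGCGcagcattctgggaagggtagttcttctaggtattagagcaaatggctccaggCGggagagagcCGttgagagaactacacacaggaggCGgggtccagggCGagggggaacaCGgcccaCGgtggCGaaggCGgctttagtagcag
Msi2: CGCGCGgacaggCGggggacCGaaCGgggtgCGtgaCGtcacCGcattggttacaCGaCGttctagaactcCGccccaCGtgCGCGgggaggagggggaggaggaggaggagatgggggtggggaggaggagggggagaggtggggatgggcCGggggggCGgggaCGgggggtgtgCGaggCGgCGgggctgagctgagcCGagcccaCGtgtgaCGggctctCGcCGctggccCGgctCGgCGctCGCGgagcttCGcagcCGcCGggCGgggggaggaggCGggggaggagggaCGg
Prkca: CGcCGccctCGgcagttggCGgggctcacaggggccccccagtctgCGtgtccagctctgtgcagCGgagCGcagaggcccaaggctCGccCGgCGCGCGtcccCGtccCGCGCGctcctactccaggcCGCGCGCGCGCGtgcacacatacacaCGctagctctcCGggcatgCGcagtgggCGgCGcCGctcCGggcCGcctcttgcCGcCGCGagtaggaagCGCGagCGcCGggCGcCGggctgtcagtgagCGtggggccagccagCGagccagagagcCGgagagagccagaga
Pard3: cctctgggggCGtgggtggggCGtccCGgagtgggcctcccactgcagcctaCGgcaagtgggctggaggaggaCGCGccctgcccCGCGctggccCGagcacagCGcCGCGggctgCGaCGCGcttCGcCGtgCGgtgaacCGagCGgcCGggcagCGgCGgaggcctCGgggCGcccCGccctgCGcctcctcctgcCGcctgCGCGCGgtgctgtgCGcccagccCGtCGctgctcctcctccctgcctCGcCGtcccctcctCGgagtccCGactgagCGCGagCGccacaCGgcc
These windows hold 23 CG pairs for Fto, 37 for Msi2, 42 for Prkca and 42 for Pard3. Of all 32851 windows in the RefSeq table, 43.5% hold at least 10, and of the 11786 windows of tested genes 81.0%. The Pard3 window not shown holds 5. Entries were found for 30 of the 39 genes.

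Enzymes of metabolism, RNA and mitochondria fell with 1 exception. Of 11 such genes 9 were tested, and 8 of them fell, with a median log2 fold change of -1.41. Beside this count and those of the other roles stands the 18.6% of all genes called lower. On the log2(RPKM + 0.5) scale the largest fall of the list was that of Fto, which removes methyl groups from adenosine in RNA. Fto was at 19.6, 20.8 and 21.4 RPKM in the Luc and at 1.61, 1.76 and 1.86 RPKM in the Sfpq libraries. That left 8.47% of the Luc mean, a log2 fold change of -3.23 (SE 0.11, limma adjusted p = 3.63e-07). The libraries of each group were close together and the groups lay far apart. Immp2l, a subunit of the peptidase of the inner mitochondrial membrane, was at 4.03, 3.35 and 5.05 RPKM against 0.344, 0.648 and 0.802 RPKM. It kept 14.4% of the Luc mean (a log2 fold change of -2.09, SE 0.19, limma adjusted p = 4.83e-05). Its libraries spread more widely than those of Fto in both groups, without overlap.

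Genes that serve translation were among the enzymes that fell. Eefsec delivers selenocysteine-loaded tRNA to the ribosome, and its RPKM was 13.3, 13.3 and 9.81 in the Luc and 3.41, 3.86 and 3.78 in the Sfpq libraries (30.4% of the Luc mean, log2 fold change -1.58, limma adjusted p = 3.53e-05). Fars2 charges the phenylalanine tRNA of mitochondria, and went from 11.7, 11.4 and 10.9 RPKM to 3.78, 4.33 and 3.82 RPKM (35.1%, log2 fold change -1.40, limma adjusted p = 1.59e-05). Luc replicate 3 was the lowest Luc library for both, yet lay at over 2 times the highest Sfpq library. Cdkal1, which modifies a lysine tRNA, was at 2.98, 2.79 and 4.93 RPKM against 1.37, 1.86 and 1.81 RPKM (47.2%, log2 fold change -0.87, limma adjusted p = 0.00709). Here Luc replicate 3 was the highest, and the other Luc libraries stood nearer to the Sfpq ones.

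Wwox, an oxidoreductase with WW domains, was at 3.05, 3.46 and 2.81 RPKM in the Luc and 0.526, 1.27 and 0.869 RPKM in the Sfpq libraries, which left 28.6% (log2 fold change -1.41, limma adjusted p = 0.000481). Gphn, gephyrin, which completes the molybdenum cofactor and anchors inhibitory receptors at synapses, went from 12.7, 10.6 and 16.8 RPKM to 4.48, 4.65 and 4.602 RPKM (34.2%, log2 fold change -1.43, limma adjusted p = 0.000127). Its Luc libraries varied widely while its Sfpq libraries were nearly equal. Dpyd, which opens the breakdown of uracil and thymine, was at 1.15, 1.46 and 1.42 RPKM against 0.608, 0.750 and 0.640 RPKM (49.4%, log2 fold change -0.66, limma adjusted p = 0.00331). Macrod2, which removes ADP-ribose from proteins, was the enzyme that did not pass: 5.06 to 8.09 RPKM in the Luc and 6.81 to 7.70 RPKM in the Sfpq libraries (log2 fold change 0.20, 95% interval -0.16 to 0.56, limma adjusted p = 0.338).

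Fhit, a hydrolase of dinucleoside polyphosphates, lay under the minimum for the test. It was at 0.921, 0.662 and 0.952 RPKM in the Luc libraries, against 0.0666, 0.0359 and 0 RPKM after knockdown, 4.04% of the Luc mean. In the rRNA-depleted pair it was at 0.651 and 0.111 RPKM. Every Sfpq library lay far below the lowest Luc library. With no minimum its log2 fold change was -1.33 (limma adjusted p = 0.000428). The other 4 genes under the minimum were at or near 0 in both groups, so they carry no comparison. Diaph2, a formin that builds actin filaments, had a highest value of 0.0159 RPKM over the poly(A) libraries, and Cdk14, a cyclin-dependent kinase, 0.00841 RPKM. For the polarity scaffold Pard3b the highest was 0.00492 RPKM, and the transcriptional cofactor Atxn1 was listed at 0 in all 6.

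**Figure D2:**
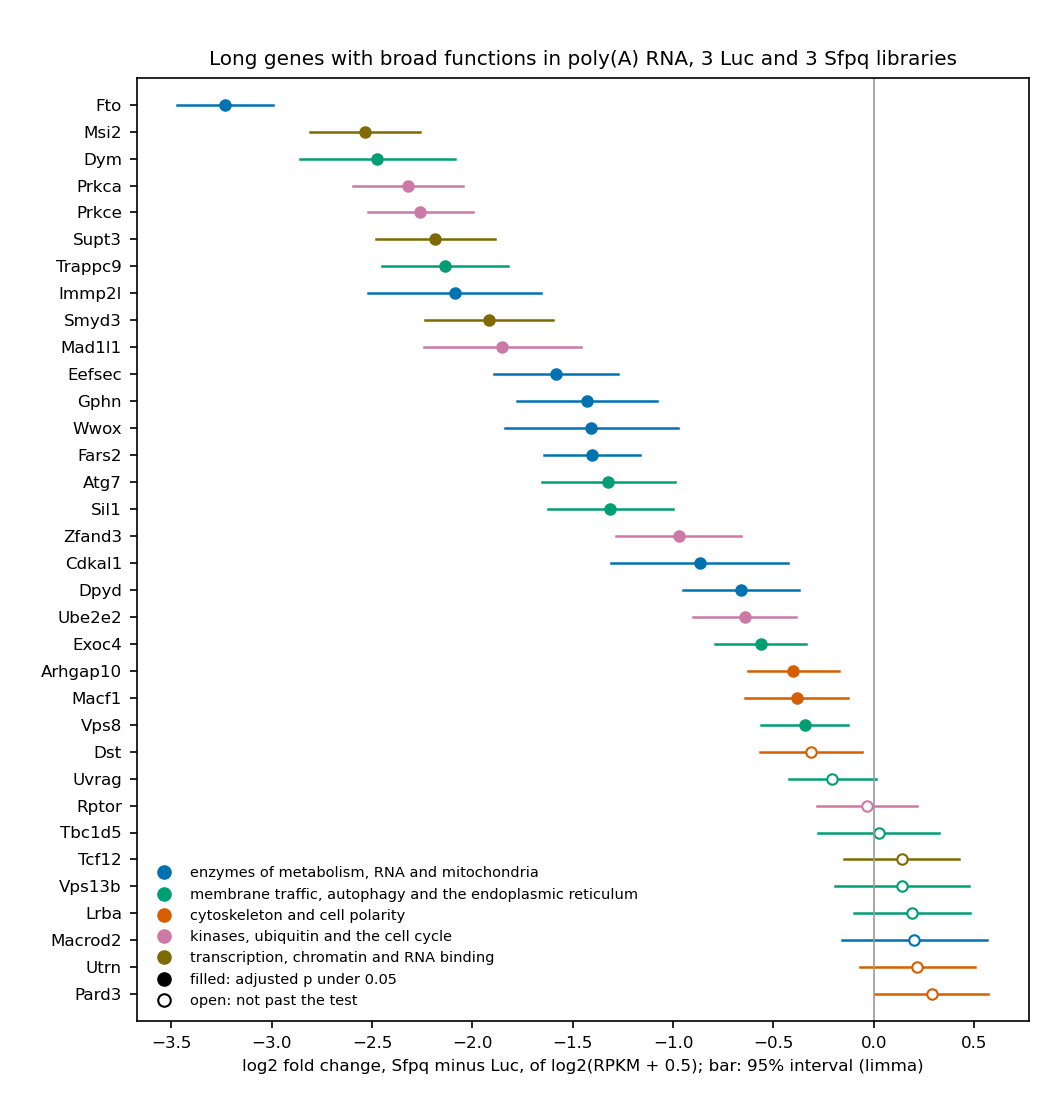
Log2 fold change of each tested long gene in poly(A) RNA (horizontal axis: Sfpq minus Luc on the log2(RPKM + 0.5) scale, 3 against 3 libraries), with the 95% interval from limma as a bar, coloured by role. The 24 filled points are genes that fell, from Fto at -3.23 to Vps8 at -0.35, and the 10 open points, which did not pass the test, run from Dst at -0.31 to Pard3 at 0.29.

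In membrane traffic, autophagy and the endoplasmic reticulum the response was divided. Of 10 genes tested 6 fell and 4 did not pass, with a median log2 fold change of -0.45. The largest falls were those of Dym and Trappc9, both linked to the Golgi. Dym encodes dymeclin, a protein of the Golgi membrane, and was at 9.26, 10.3 and 12.2 RPKM in the Luc and 1.06, 1.89 and 1.58 RPKM in the Sfpq libraries (14.3% of the Luc mean, or a log2 fold change of -2.47, SE 0.17, limma adjusted p = 9.84e-06). Trappc9, a subunit of the TRAPP II complex that activates Rab proteins at the Golgi, went from 8.97, 11.3 and 7.92 RPKM to 1.73, 1.75 and 1.72 RPKM (18.4%, log2 fold change -2.14, SE 0.14, limma adjusted p = 6.71e-06). The Trappc9 values of the 3 Sfpq libraries were almost equal.

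Atg7, which activates the ubiquitin-like proteins of autophagy, was at 3.71, 3.48 and 3.1 RPKM against 1.40, 0.894 and 0.959 RPKM (31.6% of the Luc mean, log2 fold change -1.32, limma adjusted p = 0.000147). Sil1, which exchanges the nucleotide of the endoplasmic reticulum chaperone Hspa5, was at 6.27, 5.42 and 6.02 RPKM against 1.66, 2.21 and 2.42 RPKM (35.5%, log2 fold change -1.31, limma adjusted p = 0.000107). Both genes kept about a like share of their RNA, and neither had overlapping groups. Exoc4, a subunit of the exocyst that tethers secretory vesicles, fell less, from 10.5, 10.3 and 11.3 RPKM to 6.95, 7.17 and 7.11 RPKM (66.1%, log2 fold change -0.56, limma adjusted p = 0.00202). Vps8, a subunit of the endosomal CORVET tether, was at 9.88, 10.1 and 10.3 RPKM against 7.67, 8 and 7.86 RPKM (77.7%, log2 fold change -0.35, limma adjusted p = 0.0192). The Vps8 call was lost without Luc replicate 1 (limma adjusted p = 0.0654), without Sfpq replicate 2 (0.0686) or without the third Sfpq library (0.0809).

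The other traffic genes gave values close to no change. Uvrag, which joins the Beclin 1 complex, was at 19.3 to 20.2 RPKM in the Luc and 16.2 to 18.1 RPKM in the Sfpq libraries, with no overlap (log2 fold change -0.21, 95% interval -0.42 to 0.01, limma adjusted p = 0.118). Tbc1d5, which turns off Rab7 together with retromer, was at 4.02 to 4.33 against 3.71 to 5.16 RPKM (log2 fold change 0.02, 95% interval -0.28 to 0.32, limma adjusted p = 0.902). Vps13b, a lipid transfer protein of the Golgi, was at 1.75 to 2.65 against 2.13 to 2.58 RPKM (log2 fold change 0.14, 95% interval -0.19 to 0.48, limma adjusted p = 0.484). Lrba, a BEACH domain protein of endosomal recycling, was at 2.78 to 3.58 against 3.25 to 3.82 RPKM (log2 fold change 0.19, 95% interval -0.10 to 0.48, limma adjusted p = 0.263). For each of these 4 genes the interval left room for a small change in either direction, but not for a 2-fold one.

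Cytoskeletal and polarity genes had the smallest median change of the 5 roles. Of 7 genes 5 were tested, of which 2 fell, with a median log2 fold change of -0.31. Arhgap10, a GTPase-activating protein, was at 8.28, 8.16 and 8.82 RPKM in the Luc and 6.23, 6.14 and 6.39 RPKM in the Sfpq libraries (74.3% of the Luc mean, log2 fold change -0.40, limma adjusted p = 0.0114). Macf1, a spectraplakin that links actin to microtubules, was at 2.66, 2.83 and 3.02 RPKM against 1.91, 2.07 and 2.19 RPKM (72.5%, log2 fold change -0.38, limma adjusted p = 0.0244). The groups were apart for both genes, by narrow margins. The Arhgap10 call was lost without Sfpq replicate 2 (limma adjusted p = 0.0575). That of Macf1 was lost without Luc replicate 1 (0.0547) or 2 (0.0523) and without any one of the Sfpq libraries (0.067, 0.0816 and 0.0593 for replicates 1, 2 and 3).

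The related spectraplakin Dst was at 10.7, 11.1 and 10.9 RPKM in the Luc and 7.64, 8.93 and 9.61 RPKM in the Sfpq libraries. All Sfpq libraries were below all Luc libraries, and the value missed the threshold narrowly (log2 fold change -0.31, 95% interval -0.57 to -0.06, limma adjusted p = 0.0529). It passed without Luc replicate 3 (limma adjusted p = 0.0306), with median-ratio (0.0202) or quantile scaling (0.0259) and with the mean of its rows (0.0413). Utrn, the autosomal relative of dystrophin that ties actin to the membrane, was at 5.94 to 7.49 RPKM against 6.998 to 8.80 RPKM (log2 fold change 0.22, 95% interval -0.07 to 0.51, limma adjusted p = 0.204). Pard3, the scaffold of the PAR polarity complex, had the highest log2 fold change of the list. It was at 10.4, 10.4 and 11.3 RPKM in the Luc and 11.2, 15.2 and 13.4 RPKM in the Sfpq libraries (log2 fold change 0.29, 95% interval 0.01 to 0.57, limma adjusted p = 0.0953), with Sfpq replicate 1 just inside the Luc range. Without Sfpq replicate 1 the value was 0.40 and passed (limma adjusted p = 0.0352).

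Kinases, ubiquitin and cell cycle genes fell in 5 of 6 tested cases, of 7 in all, with a median of -1.41. This count and median include Prkca and Prkce, which met the minimum through their Luc libraries alone. The 2 protein kinase C genes of the list, which signal downstream of diacylglycerol, had nearly no RNA left. Prkca was at 2.57, 2.52 and 2.95 RPKM in the Luc and 0.110, 0.148 and 0.147 RPKM in the Sfpq libraries, which left 5.03% of the Luc mean (a log2 fold change of -2.32, SE 0.12, limma adjusted p = 1.96e-06). Prkce was at 2.90, 2.78 and 3.03 RPKM against 0.179, 0.215 and 0.239 RPKM, or 7.27% (log2 fold change -2.26, SE 0.12, limma adjusted p = 1.92e-06). By the share left these falls were as deep as that of Fto, while the added 0.5 RPKM pulls the log2 fold change of such low genes towards 0. Mad1l1, which brings Mad2 to kinetochores in the spindle checkpoint, was at 10.97, 11.7 and 12.9 RPKM against 2.09, 3.18 and 3.69 RPKM (25.2%, log2 fold change -1.85, SE 0.17, limma adjusted p = 5.47e-05).

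The ubiquitin-conjugating enzyme Ube2e2 was at 17.3, 15.05 and 17.3 RPKM in the Luc and 9.28, 10.9 and 11.1 RPKM in the Sfpq libraries (63.0% of the Luc mean, log2 fold change -0.64, limma adjusted p = 0.00202). Zfand3, an AN1 zinc finger protein, had the highest control level of the list and went from 30.9, 32.7 and 24.3 RPKM to 16.7, 13.4 and 13.8 RPKM (49.97%, log2 fold change -0.97, limma adjusted p = 0.000627). Neither gene had overlapping groups. Rptor, the scaffold of mTOR complex 1, was the tested gene of this role that did not pass, with 9.34 to 10.6 RPKM against 8.85 to 10.4 RPKM (log2 fold change -0.04, 95% interval -0.28 to 0.21, limma adjusted p = 0.821).

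Transcription, chromatin and RNA-binding genes had the lowest median, -2.05, with 3 of 4 tested genes lower, of 5 in all. This count and median include Smyd3, which met the minimum through its Luc libraries alone. Msi2, an RNA-binding protein of the Musashi family that regulates translation, was at 6.45, 6.01 and 7.53 RPKM in the Luc and 0.729, 0.698 and 0.765 RPKM in the Sfpq libraries (10.97% of the Luc mean, or a log2 fold change of -2.54, SE 0.12, limma adjusted p = 1.60e-06). With the mean of its rows, which differ as described below, the log2 fold change was -1.36. Supt3, a subunit of the SAGA coactivator, went from 19.5, 20.8 and 23.3 RPKM to 3.55, 4.54 and 4.78 RPKM (20.2%, log2 fold change -2.18, SE 0.13, limma adjusted p = 4.46e-06). Smyd3, a lysine methyltransferase, was at 2.34, 2.498 and 2.43 RPKM against 0.210, 0.424 and 0.204 RPKM (11.5%, log2 fold change -1.92, SE 0.14, limma adjusted p = 1.37e-05). The highest Sfpq library lay far below the lowest Luc library for each of these 3 genes. Tcf12, an E protein transcription factor, was at 16.1 to 22.2 RPKM against 19.9 to 21.8 RPKM and did not pass (log2 fold change 0.14, 95% interval -0.15 to 0.42, limma adjusted p = 0.411).

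The depth of the fall varied widely, from 5.03% of the Luc mean left for Prkca and 8.47% for Fto to 77.7% for Vps8. Of the 24 genes that fell, 3 kept under 10% of the Luc mean (Prkca, Prkce and Fto), 6 kept 10 to 25%, 10 kept 25 to 50% and 5 kept 50% or more, with a median of 31.0%. Prkca and Prkce, and Smyd3 among those at 10 to 25%, met the minimum through their Luc libraries alone. They were left in these counts and in the median. Control levels were similar: genes that fell had a median Luc mean of 8.92 RPKM, with a range of 1.35 to 29.3, and those not called one of 8.38 RPKM, with a range of 2.16 to 19.7. Across the 34 genes, Pearson's r between log2 fold change and log2 Luc level was -0.06 and Spearman's coefficient -0.05, as a description over genes measured in the same libraries. The Luc level enters both values, and the added 0.5 RPKM pulls the log2 fold change of low genes towards 0. For that reason these coefficients cannot show whether the fall depended on level, which was not tested. The ratio of rRNA-depleted to poly(A) RPKM in Luc cells was likewise similar in genes that fell and in those not called, with medians of 0.778 and 0.810, beside 0.699 over all genes.

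Leaving out Luc replicate 3 changed the calls most. Without it limma called 26 of the 34 genes lower, the additions being Dst and Uvrag (adjusted p = 0.0482 for Uvrag), and 4 higher. Those 4 were Lrba (log2 fold change 0.29, limma adjusted p = 0.0489), Macrod2 (0.38, 0.0104), Pard3 (0.32, 0.0379) and Tcf12 (0.25, 0.0399). The share of all genes called higher was 30.9% without that library, so the rise from 0 to 4 went along with more calls overall.

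The rRNA-depleted libraries, 1 for each siRNA and therefore without a test, gave a similar order of genes. All 34 reached a mean of 0.5 RPKM over the pair. Of these, 21 were lower by at least 1.5-fold on the log2(RPKM + 0.5) scale, beside 13.3% of 11386 genes. Prkca, Prkce, Smyd3 and Immp2l met that minimum through the Luc library alone, with 0.158, 0.436, 0.278 and 0.312 RPKM in the Sfpq library. They are among the 21 and were left in the median, counts and coefficients below. In the other direction, 0 were higher by that fold, beside 7.86%. The median log2 ratio of the 34 was -0.93, beside -0.02 over all genes. Every gene that fell in poly(A) RNA was below 0 here, and 21 of those 24 by at least 1.5-fold, the other 3 being Exoc4, Macf1 and Vps8. Of the 10 genes not called, 0 were lower by that fold and 6 were above 0. The sign was the same in 33 of 34 genes, with Tcf12 as the exception. Pearson's r between the poly(A) and rRNA-depleted values was 0.96 and Spearman's coefficient 0.97 over the 34 genes, a description with no test.

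Levels of single genes in the rRNA-depleted pair show this. Msi2 was at 12.7 RPKM in the Luc and 1.196 RPKM in the Sfpq library, Fto at 18.2 and 1.91 RPKM, and Prkca at 2.03 and 0.158 RPKM. For the rows used, these 3 genes were far lower in the Sfpq library in both kinds of RNA. Dym was at 3.55 and 0.908 RPKM, Supt3 at 8.02 and 1.47 RPKM, and Trappc9 at 7.55 and 1.71 RPKM. Dym stood further from equality than most, with a log2 ratio of -1.52 beside the poly(A) log2 fold change of -2.47. Pard3 was at 14.1 and 15.7 RPKM and Utrn at 11.03 and 13.1 RPKM, both slightly higher in the Sfpq library. The kinds of RNA also differed in control cells: Msi2 had 1.91 times and Utrn 1.63 times as much RPKM in rRNA-depleted as in poly(A) RNA, and Macrod2 0.175 times.

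**Figure D3:**
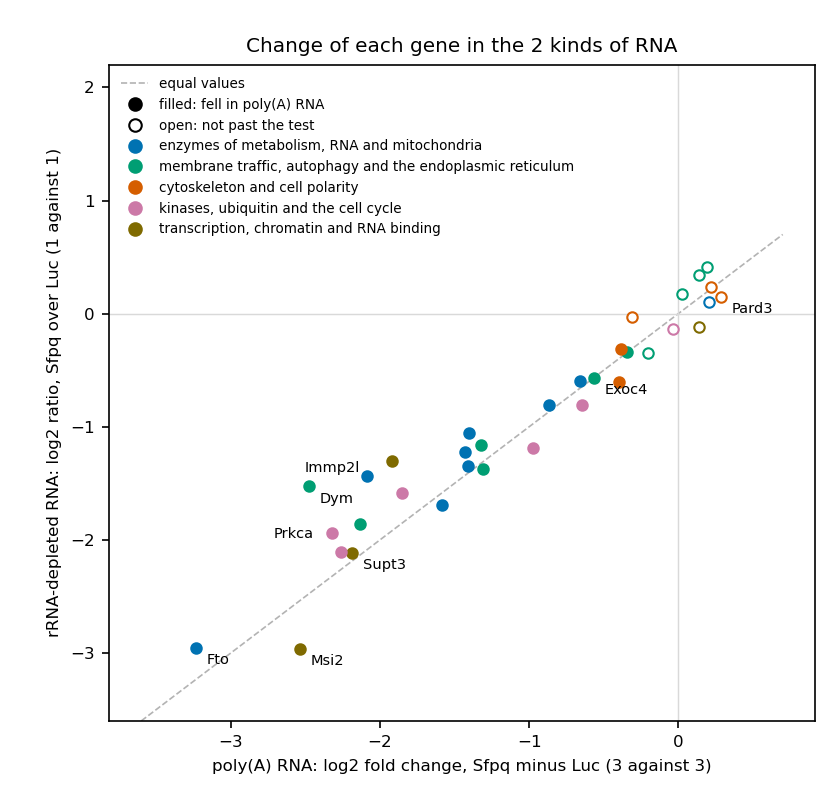
Log2 fold change of each of the 34 long genes in poly(A) RNA (horizontal axis, 3 against 3 libraries) against the log2 ratio in rRNA-depleted RNA (vertical axis, 1 against 1 library), Sfpq over Luc, coloured by role, filled where the gene fell in poly(A) RNA. Points lie along the dashed line of equal values, with Fto at -3.23 and -2.95, Msi2 at -2.54 and -2.96 and Dym at -2.47 and -1.52, and open points gather around 0.

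The partners of the long genes, that is the other subunits of their complexes and their relatives, moved in both directions. Their list held 165 genes, of which 152 were tested: 23 (15.1%) fell and 28 (18.4%) rose, beside 18.6% and 21.3% of all genes, with a median of 0.10. These shares are near the background. A fall of at least 2-fold was called for 3 of the 152, beside 4.73% of all genes. Under median-ratio scaling of the libraries the partners were 30 lower (19.7%) and 25 higher (16.4%), beside 21.4% and 19.3% of all genes. Of the other exocyst subunits limma called 0 of 8 (1 lower and 0 higher at an unadjusted p under 0.05) while Exoc4 fell, and of the other CORVET and HOPS subunits 0 of 7 (0 and 0) while Vps8 fell. Of 13 TRAPP subunits 3 fell, led by Trappc2l at -0.62 (limma adjusted p = 0.00759), well short of the fall of Trappc9. Of 10 SAGA subunits 0 fell (also 0 at an unadjusted p under 0.05) and 3 rose, led by the deubiquitinase Usp22 at 0.96 (limma adjusted p = 6.01e-05), while Supt3 fell. In the spindle checkpoint 3 of 6 rose and 0 fell (4 higher and 0 lower at an unadjusted p under 0.05), led by the kinase Bub1 at 0.67 (limma adjusted p = 0.0202), while Mad1l1 fell.

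Close relatives sometimes went opposite ways. Counts in these small groups stand beside 18.6% of all genes called lower and 21.3% called higher. As partners together were near those shares, the groups here and below are description only. Msi1, the other Musashi protein, rose from a mean of 6.39 to 13.6 RPKM (log2 fold change 1.06, limma adjusted p = 0.00145), whereas Msi2 fell. In the AlkB family of demethylases, to which Fto belongs, 3 of 6 rose and 1 fell, the latter Alkbh3 at -0.42 (limma adjusted p = 0.0201). Cdk5rap1, the other methylthiotransferase, rose by 0.48 (limma adjusted p = 0.00506) beside the fall of Cdkal1. Of 5 other selenocysteine genes 1 rose, Secisbp2 by 0.51 (limma adjusted p = 0.00471), and 0 fell, beside the fall of Eefsec. Among 15 other mitochondrial tRNA synthetases 2 fell and 1 rose, Sars2 at 0.68 (limma adjusted p = 0.00268). Ube2e1, 1 of 2 relatives of Ube2e2, fell by 1.85 on the log2 scale (limma adjusted p = 0.00023), more than Ube2e2 itself. The other relative, Ube2e3, was not called.

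Some partners moved where the long gene did not, again beside 18.6% of all genes called lower and 21.3% called higher. Rptor did not pass, but of the 6 other mTOR complex genes 2 fell and 1 rose, the shared subunit Mlst8 at 1.36 (limma adjusted p = 2.79e-05). Among 5 tested genes of the dystrophin complex around Utrn 3 fell, led by the dystrobrevin Dtnb at -1.09 (limma adjusted p = 0.000105). In the BEACH family around Lrba 2 fell and 3 rose, with Nbea at -0.75 (limma adjusted p = 0.00176). Of the 2 other E proteins Tcf4 fell by 0.56 (limma adjusted p = 0.00303) and Tcf3 rose by 0.40 (0.049). Around Pard3, the polarity adaptor Pard6b rose by 0.86 (limma adjusted p = 0.00103), and 0 of 5 fell with or without adjustment.

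In other groups some partners fell together with the long gene, beside the 18.6% of all genes called lower. Among autophagy conjugation genes 3 of 8 fell and 2 rose, with the conjugating enzyme Atg10 at -1.42 (limma adjusted p = 0.000179), close to Atg7. Of 2 Hsp70 genes of the endoplasmic reticulum 1 fell, Hspa5, the chaperone that Sil1 serves, by 0.45 (limma adjusted p = 0.00538). Of 3 molybdenum cofactor genes around Gphn 1 fell, Mocs2 by 0.74 (limma adjusted p = 0.00202). In both groups 0 rose.

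The smaller groups were mixed, beside the same 18.6% of all genes called lower and 21.3% called higher. Of 4 other formins 1 rose and 1 fell, Fmnl2 by 0.79 (limma adjusted p = 0.00172), and of 3 SMYD methyltransferases 1 fell, Smyd2 by 0.42 (0.00867). Of 5 relatives and partners of Cdk14 1 fell and 2 rose, led by Cdk15 at 0.87 (limma adjusted p = 0.000647). Of 4 AN1 zinc finger genes 2 rose, led by Zfand2a at 0.37 (limma adjusted p = 0.0121), and of 2 ataxin 1 partners 1 rose, Atxn1l at 0.48 (0.00458). The VPS13 family, retromer, the Beclin 1 complex, the HIT family and the macrodomain hydrolases, with 18 tested genes, had 0 limma calls in either direction (3 lower and 3 higher at an unadjusted p under 0.05).

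Long neuronal genes are the set most like these genes. A list of 96 was written from general knowledge of gene size, 94 were in the files and 30 were tested. Of these 26 fell and 1 rose, beside 18.6% and 21.3% of all genes, with a median of -1.22. By at least 2-fold 19 fell, beside 4.73% of all genes, and by at least 4-fold 8, beside 0.759%. Beside them stand the 24 of 34 genes, 0 risen, the median of -0.92, the 16 and the 8 of the long genes with broad functions. In rRNA-depleted RNA 21 of 27 long neuronal genes were lower by at least 1.5-fold, against 21 of 34. The difference between the lists was not tested. Only 30 of the 94 neuronal genes met the minimum level, against 34 of 39 genes with broad functions. Genes that met it through their Luc libraries alone were left in both lists here. Their number among the neuronal genes was not counted.

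**Figure D4:**
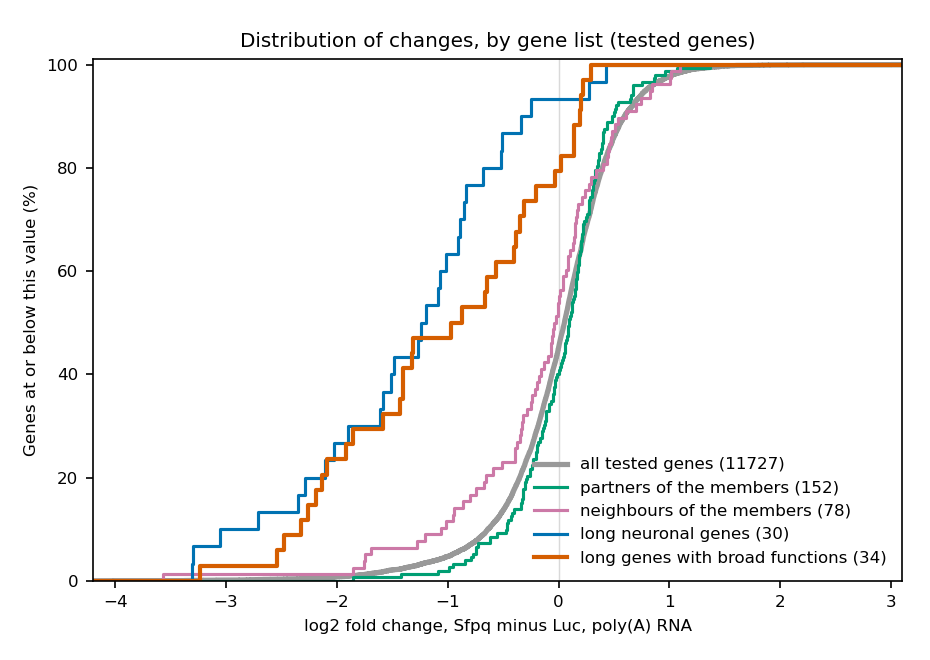
Share of genes (vertical axis, percent) at or below each log2 fold change (horizontal axis, Sfpq minus Luc in poly(A) RNA) for all tested genes, the 34 long genes with broad functions, 30 long neuronal genes, 152 partners and 78 neighbours. The curves of both long lists lie far to the left, with medians of -0.92 and -1.22. That of partners runs near that of all genes. The curve of neighbours has a median of -0.03, beside 0.05 for all genes, but a lower quartile of -0.39, beside -0.26.

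The genes beside the long genes were described as well, using the nearest tested gene on each side in the gene order of GRCm38.p6. Untested genes can lie between: the neighbours stood 1 to 112 places away, with a median of 4. Of 78 neighbours 19 (24.4%) fell and 15 (19.2%) rose, beside 18.6% and 21.3% of all genes, with a median of -0.03. By at least 2-fold 9 of the 78 fell, beside 4.73% of all genes. In rRNA-depleted RNA 14 of 74 were lower by at least 1.5-fold, beside 13.3%, and 6 higher, beside 7.86%. Under median-ratio scaling the counts were 24 lower (30.8%) and 12 higher (15.4%), beside 21.4% and 19.3%. Beside the 24 long genes that fell stood 48 neighbours, 10 of them lower and 8 higher by the test, with a median of -0.05. The largest changes were those of Vat1l, 4 places from Wwox, which fell by 3.57 on the log2 scale (limma adjusted p = 1.86e-07), of Ube2e1, 7 places from Ube2e2, and of Lyrm4, an iron-sulfur cluster assembly gene 3 places from Fars2, which fell by 1.76 (limma adjusted p = 1.9e-05). Both tested neighbours of Fto rose, Rpgrip1l of the ciliary transition zone, 3 places away, by 0.70 (limma adjusted p = 0.0039) and the noncoding RNA gene Crnde, 15 places away, by 0.83 (0.00153). These 2 were picked after their values were seen.

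Genes with several RefSeq transcript rows showed whether the response held across transcripts. The 13 tested genes with more than 1 row had 38 tested rows, of which 20 were called lower, beside 19.3% of all 16793 rows, and 0 higher, beside 21.6% (21 lower and 2 higher at an unadjusted p under 0.05 in limma). Rows of 1 gene share exons and so also reads, and how the authors assigned shared reads is not given in the sources used here. In 7 of the 13 genes the rows differed by under 0.1 on the log2 scale, and in 5, Msi2, Trappc9, Pard3, Macrod2 and Fars2, by 0.3 or more. Those 5 were singled out after their values were seen.

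The clearest case was Msi2. Its row NM_054043, used above, fell by 2.54 on the log2 scale, while NM_001201341 was at 3.87, 4.72 and 3.53 RPKM in the Luc and 2.44, 3.40 and 2.68 RPKM in the Sfpq libraries (log2 fold change -0.44, limma adjusted p = 0.0382). The log2 ratio of the former to the latter was 0.67, 0.32 and 1.00 in the Luc and -1.26, -1.70 and -1.33 in the Sfpq libraries. In control cells NM_054043 was thus the higher row, and in knockdown cells the lower one. In rRNA-depleted RNA the ratio went from 1.196 to -0.52. There NM_001201341 was also lower in the Sfpq library, at 5.26 RPKM in the Luc and 1.94 RPKM in the Sfpq library (log2 ratio -1.24). The 4 Trappc9 rows all fell, by 1.43 to 2.14, and both Fars2 rows, by 1.40 and 1.73.

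Pard3 had 4 tested rows, and 0 of them passed in limma (0 lower and 2 higher at an unadjusted p under 0.05). NM_033620 had a log2 fold change of -0.24 and NM_001122850 one of 0.29. The log2 ratio of these rows was -0.05, 0.03 and -0.01 in the Luc and -0.52, -0.54 and -0.56 in the Sfpq libraries, and went from -0.01 to -0.51 in rRNA-depleted RNA. The balance between the rows thus differed in every library of the groups, though neither row was called. The 2 Macrod2 rows were at -0.19 and 0.20, and neither was called. For Dst, whose row used above missed the threshold, the other 3 rows passed with log2 fold changes of -0.34, -0.34 and -0.47.

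**Figure D5:**
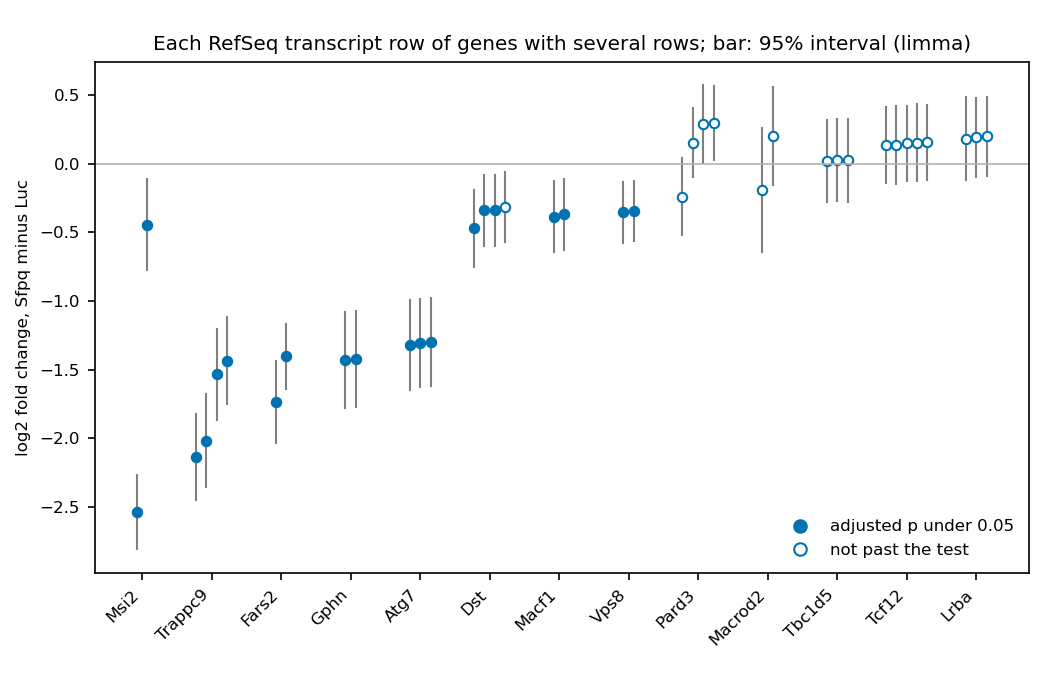
Log2 fold change (vertical axis, Sfpq minus Luc in poly(A) RNA) of each tested RefSeq row of the 13 long genes with several rows, with 95% intervals from limma, filled where the adjusted p was under 0.05. The 2 Msi2 rows lie far apart, at -2.54 and -0.44, the 4 Pard3 rows lie on both sides of 0, and the rows of Gphn, Atg7, Macf1 and Vps8 fall on top of each other within each gene.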

How the data were processed

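Poly(A) RNA (3 Luc and 3 Sfpq libraries) and rRNA-depleted RNA (1 of each) were sequenced on the Ion Proton, per the labels' protocols; polymerase II immunoprecipitation was not analysed here. The authors deposited RPKM for 30978 RefSeq rows per library, per the file headers. Alignment used TopHat2 2.0.10 and mm9, per the submitters' processing notes. The RPKM program, its annotation and its use of strand or of shared reads: not given in the sources used here. Deposited RPKM keeps no read counts, so absolute depth is unknown and precision comes from the replicates.

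Groups came from the titles; the description of Sfpq replicate 2 gives another number. Rows were named by identifier from a RefSeq table of GRCm38.p6 (30507 of 30978), used for names and gene order, not for spans. The row with the highest mean stood for a gene. Genes whose mean reached 0.5 RPKM were compared with limma 3.58.1 (R 4.3.3, trended prior) on log2(RPKM + 0.5), with Benjamini-Hochberg adjustment over all genes; the step was tested on simulated data. The rRNA-depleted pair was described by ratios. Other steps used Python 3.11.15, numpy 2.4.6, pandas 2.3.3 and scipy 1.17.1.

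The genes and lists were chosen with earlier results of these data known. Named were Sfpq, every long gene, the largest called partner per group at a mean of at least 1 RPKM, and the 3 largest called neighbours; others were chosen after their values were seen. Alternatives were pseudocounts of 0.1 and 1, no minimum or a mean of 2 RPKM, median-ratio and quantile scaling, no trend, a replicate block, the mean of all rows, a 2-fold limit in rRNA-depleted RNA and leaving out each library. Gene spans were not compared, and promoter composition was not compared between lists because 30 of 39 genes (76.9%) had an entry, under the 80% needed.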

Additional observations from a re-analysis of the deposited data

How the results depend on the processing

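Over 15 alternative settings, 505 values of single long genes were compared with the reported ones: 480 kept their direction and side of the threshold, 10 passed newly and 9 no longer passed. The other 6 changed sign, all of them values of Rptor and Tbc1d5, which stayed near 0 and did not pass. With a pseudocount of 0.1 the log2 fold change of Prkca (-3.566) was larger than that of Fto (-3.489). Of the 24 genes that fell, 21 did so under every setting that tested them, the exceptions being Arhgap10, Macf1 and Vps8. The count of long genes called lower was 19 at a minimum mean of 2 RPKM, where Dpyd, Prkca, Prkce, Smyd3 and Wwox were not tested, and 22 to 26 when single libraries were left out. The count called higher was 0 to 4 then. The median log2 fold change was -0.96 with median-ratio scaling, -0.644 at a minimum mean of 2 RPKM, -0.765 with no minimum, -0.999 with a pseudocount of 0.1, -0.846 with a pseudocount of 1, and -1.069 to -0.87 when single libraries were left out. At a minimum mean of 2 RPKM, 13 long genes were lower in rRNA-depleted RNA and 8 neighbours were higher, as fewer genes were tested. Long neuronal genes called higher were 0 at that minimum, 2 with no minimum and 0 to 1 without single libraries, and partners called higher were 16 to 50 without single libraries. The counts for partners, long neuronal genes and neighbours under these settings were added after the data were seen.

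Same-numbered Luc and Sfpq libraries did not deviate together in every pair (r = 0.327, -0.035 and 0.157), so the numbers were not taken to pair the samples. With a replicate block 24 long genes were called lower and 0 higher, with a median of -0.92; the Sfpq value was -3.54. Sfpq replicate 1 was the shallowest library, and no limit of detection can be set for genes near 0 because RPKM keeps no counts.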
